A study of Mus musculus with 14 samples.

Results

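Hepatic transcripts of obese mice treated with canagliflozin were compared with those of obese mice left on the same high-fat diet (HFD) without the drug. The comparison takes 9 of the 14 arrays of the study, chosen by their titles: 5 from the canagliflozin arm and 4 from the HFD control arm. All mice were male C57Bl/6J, an inbred strain that gains weight and accumulates liver fat on such diets. They were 6 weeks old at the start and ate a 60% HFD without limit for 4 weeks. The controls then continued on that diet for 4 more weeks, while the drug arm received canagliflozin with it, at 30 mg/kg in the sample labels and 25 to 30 mg/kg in the treatment protocol. A further arm of 5 arrays, restricted by 15 to 30% in calories so that its weight matched the drug arm, is used here only for side-by-side values and for 1 direct test against the drug. No arm on a lean diet is among the samples, so values are relative to obese, untreated liver.

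Canagliflozin inhibits SGLT2, the sodium-glucose cotransporter that reclaims filtered glucose in the kidney tubule, and so causes glucose to be lost in urine. Loss of glucose lowers insulin and raises glucagon relative to it, a balance that in hepatocytes normally governs FOXO1 and CREB targets of fasting, the SREBP-1c and ChREBP programs of fat synthesis, and PPARα targets of fatty acid oxidation. Those programs are described below in turn, from hormone-responsive genes to synthesis, oxidation, nitrogen handling and protein folding.

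Each array gave log2 RMA values, where 1 unit is a 2-fold difference, and 22180 genes were each represented by their brightest probe set. Array medians lay between 4.07 and 4.13, and gene-level correlations between arrays lay between 0.986 and 0.992. Hepatocyte markers such as Alb, the gene of serum albumin, were bright on all arrays, with a mean over 9 markers of 11.22 to 11.32 under the drug and 11.25 to 11.31 in controls. Markers of kidney tubule averaged 3.77 to 4.02 and 3.88 to 4.00, and those of adipocytes 3.95 to 4.20 and 4.08 to 4.21. Nothing in the labels ties each array to a separate mouse, so p-values measure the spread between these samples. In whole liver, fewer cells of a type and less RNA per cell cannot be told apart.

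No gene differed between canagliflozin and HFD control at a limma adjusted p under 0.05, which is 0% of the 22180 genes tested. The smallest adjusted p was 0.133, for Carmil1. At an unadjusted p under 0.05 limma gave 1444 genes, or 6.51% of those tested, with 711 higher (3.21%) and 733 lower (3.3%) under the drug. After each array was centred on its median the split was 936 higher to 527 lower. In 433 genes (1.95%) the 5 drug arrays lay entirely above or entirely below the 4 controls, 219 of them above (0.987%) and 214 below (0.965%). The differences given below are therefore estimates with their standard errors, and in the 100 genes named by rule the limma adjusted p lay between 0.133 and 0.952. Among the 9300 genes with a mean of at least 5 the separated genes were 177 (1.9%), with 81 above (0.871%) and 96 below (1.03%).

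The median 95% confidence interval of a log2 difference reached 0.25 to either side. A difference of at least 2-fold was seen in 28 genes, 16 higher and 12 lower under the drug. Leaving out canagliflozin replicate 3 gave 12 genes with an adjusted p under 0.05, namely Lepr, Cyp4a31, Fasn, Ctcflos, Fh1, Tbc1d8, Sik1, Csrp2, Ppp1r3c, Carmil1, Igfbp1 and Thrsp. Leaving out canagliflozin replicate 5 gave 1, Acot9, and leaving out any other array of the 2 groups gave 0. Without 1 array the count of genes whose groups did not overlap was 668 to 959, since fewer arrays have to be separated.

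**Figure D1:**
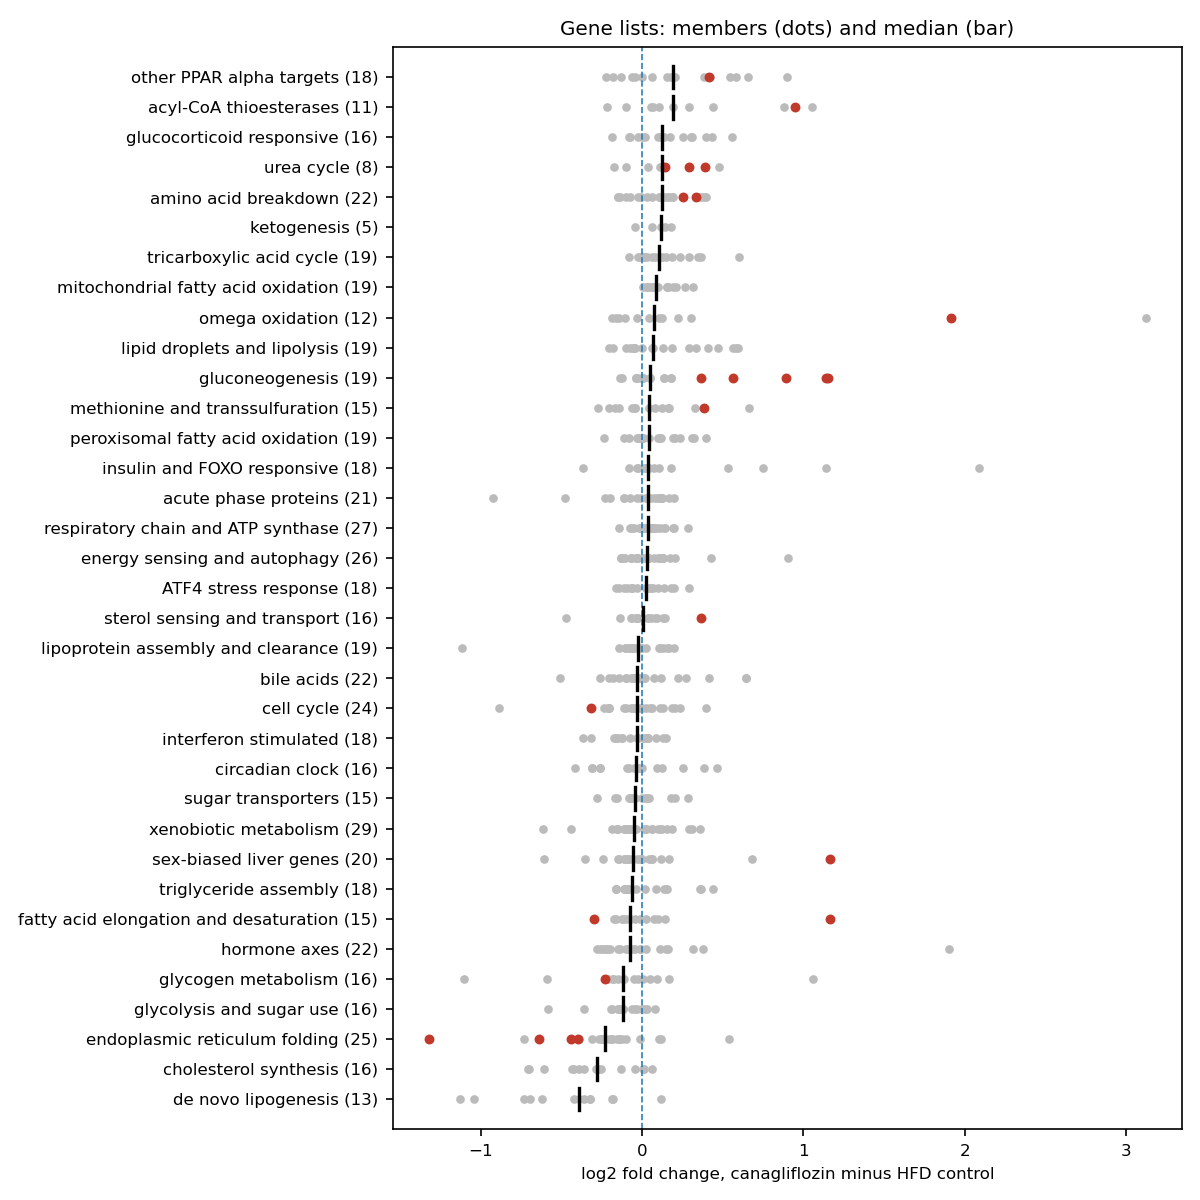
Log2 fold change (horizontal axis) of every measured member of the 35 gene lists, canagliflozin minus HFD control, with the number of members in parentheses. Each dot is a gene, red where the 5 drug arrays and 4 control arrays do not overlap, the black bar is the list's median and the dashed line is the median of all 22180 genes. De novo lipogenesis has the lowest median, -0.39, and endoplasmic reticulum folding holds 4 red dots to the left of 0.

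Among the insulin-responsive and FOXO-responsive genes the drug means were higher in Igfbp1, Irs2 and Pdk4, markers of low insulin action. Igfbp1, a secreted binding protein for insulin-like growth factors whose hepatic transcription insulin represses, read 10.39, 11.36, 8.71, 12.49 and 10.68 on canagliflozin replicates 1 to 5. The 4 controls read 8.27, 8.92, 8.65 and 8.72. Replicate 3 lay among the controls and the other 4 lay above them all. The drug mean was 10.73 ± 1.39 (SD, n = 5) against 8.64 ± 0.27 (SD, n = 4), a difference of 2.09 ± 0.55 (SE), or 4.25-fold.

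Irs2, which carries the insulin receptor's signal and is itself a FOXO1 target, read 7.77, 7.34, 6.19, 8.39 and 7.09 under the drug. Controls read 6.51, 6.83, 6.33 and 6.74, so that replicate 3 lay below all controls and the other 4 drug arrays above them. The difference was 0.75 ± 0.29, and 0.50 without canagliflozin replicate 4. For Pdk4, the kinase that blocks entry of pyruvate into the citric acid cycle, the drug arrays read 6.09, 6.58, 5.11, 8.90 and 6.04 and the controls 5.16, 5.65, 5.56 and 5.24. Its difference of 1.14 ± 0.49 was 0.55 without canagliflozin replicate 4, the highest array. Pik3r1, the regulatory subunit of PI 3-kinase, was lower by 0.37 ± 0.13 (limma adjusted p = 0.634).

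Of the 18 measured genes of this list 14 were higher and 4 lower under the drug, with a median of 0.04 against -0.000845 over all genes. Igfbp1, Irs2 and Pdk4 had an unadjusted p under 0.05 in the higher direction, and Pik3r1 in the lower one. Over all genes 3.21% were higher and 3.3% lower at that level. Among the pathway's signalling transcripts, Insr, Akt1, Akt2, Foxo1 and Foxo3 differed by between -0.08 and 0.07. The list ran from -0.37 in Pik3r1 to 2.09 in Igfbp1. Its spread thus lay in the signalling members Irs2 and Pik3r1 as well as in output genes.

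The promoter of Igfbp1 is shown because the gene had the largest difference of the list and its insulin response sequence is the classical binding site of FOXO1. The stretch is chr11:7197629-7197735 on the plus strand of GRCm38.p6, from RefSeq, ends before the annotated start, and has CAAAACA, the core searched on either strand, in capitals.
Igfbp1: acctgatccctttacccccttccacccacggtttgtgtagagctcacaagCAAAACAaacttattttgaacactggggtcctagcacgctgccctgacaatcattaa
The match spans bases 108 to 102 before the start. That core was in 2064 of 32851 promoter windows of 300 bases (6.28%), and in 3 of the 14 list members with a window, Igfbp1, Irs1 and Irs2. Irs1 and Irs2 differed by 0.03 and 0.75.

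Gluconeogenesis, the making of glucose from lactate, glycerol and amino acids, had 5 members in which all drug arrays lay above all controls. These were Sik1, Ppargc1a, Got1, G6pc and Pck1, of 19 measured, and over all genes 0.987% were separated in this direction. Each also had an unadjusted p under 0.05, and no member had one in the lower direction. Leaving out each array in turn left 5 or 6 such members.

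Ppargc1a encodes the coactivator PGC-1α, which joins CREB, FOXO1 and HNF4α at fasting genes. Its drug arrays read 7.13, 7.52, 6.66, 8.53 and 8.01, and its controls 6.08, 6.60, 6.51 and 6.53. Replicate 3 exceeded the highest control by a narrow margin, and replicate 4 was the highest of all. The means were 7.57 ± 0.73 (SD, n = 5) and 6.43 ± 0.24 (SD, n = 4), 2.20-fold apart, with a difference of 1.14 ± 0.29 (limma adjusted p = 0.559).

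Sik1, a CREB target whose kinase restrains the CREB coactivators, read 7.55, 8.22, 7.04, 8.98 and 8.48 against 6.94, 6.999, 6.73 and 6.93. The order of the drug arrays was the one seen for Ppargc1a, with replicate 3 lowest and replicate 4 highest. Sik1 was higher by 1.15 ± 0.28.

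Got1, the cytosolic aspartate aminotransferase of the malate-aspartate shuttle, read 11.70, 12.15, 11.19, 12.50 and 12.04, while its controls lay within 10.97 to 11.09. The difference was 0.89 ± 0.23, or 1.86-fold. G6pc, whose phosphatase releases free glucose, read 11.39, 11.81, 11.48, 12.12 and 12.06 against 11.38, 10.91, 11.29 and 11.26. It was higher by 0.56 ± 0.15.

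Pck1 makes phosphoenolpyruvate at the entry of the pathway. Its drug arrays read 12.88, 13.05, 12.73, 13.01 and 12.79 and its controls 12.56, 12.56, 12.66 and 12.33, a difference of 0.36 ± 0.10, or 1.29-fold. The separation of Pck1 was complete although small. The other 14 members differed by between -0.14 and 0.18, among them Fbp1 (0.14), Pck2 (0.18) and Gcgr, the glucagon receptor (-0.04). The list's median was 0.05, since the 5 separated genes stood apart from the other members.

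The Pck1 promoter carries the cAMP response element through which glucagon acts, and is shown for that reason. The stretch is chr2:173152930-173153037 on the plus strand of GRCm38.p6 (RefSeq), with the match to TGACGTNA or its reverse complement in capitals.
Pck1: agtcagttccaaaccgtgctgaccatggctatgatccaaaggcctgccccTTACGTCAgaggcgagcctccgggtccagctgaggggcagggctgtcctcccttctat
The match lies 93 to 86 bases before the start, in the reverse orientation. TGACGTNA was in 963 of the 32851 windows (2.93%) and in 1 of the 15 list members with a window, which is Pck1. For Ppargc1a, Got1 and G6pc this says only that these letters are not in their windows.

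Genes of fatty acid synthesis were lower under the drug. Of 13 measured members of de novo lipogenesis 12 were lower, 8 of them at an unadjusted p under 0.05 where 3.3% of all genes were lower at that level, and the list's median was -0.39 against -0.000845 over all genes. The 8 were Fasn, Mid1ip1, Scd1, Acaca, Thrsp, Srebf1, Acly and Mlxipl. That count was 5 without canagliflozin replicate 2, canagliflozin replicate 4 or control replicate 3, while 12 or 13 members were lower and the median was -0.53 to -0.33 whichever array was left out. In none of the 13 were the groups fully separated.

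Fasn, fatty acid synthase, read 9.28, 8.71, 10.19, 8.31 and 8.84 under the drug and between 9.79 and 10.51 in the 4 controls. Replicate 3 lay within the control range, and the other 4 arrays lay below all controls. The difference was -1.13 ± 0.27, a 2.19-fold lower mean under the drug (limma adjusted p = 0.559). Without canagliflozin replicate 3 it was -1.41 with an adjusted p of 0.0122.

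Scd1, the desaturase that makes oleate, read 11.04, 10.63, 12.72, 11.55 and 11.34 against 12.12, 12.84, 12.39 and 12.64. Replicate 3 again lay among the controls, and the difference was -1.04 ± 0.33. Thrsp, the lipogenic protein Spot 14, read 10.33, 10.35, 11.74, 10.15 and 10.81 against 11.31, 11.18, 11.52 and 11.63. Its replicate 3 was the highest of all 9 arrays, and the other 4 were the lowest.

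The 2 transcription factors of the program, which answer to insulin and to glucose, were also lower. Srebf1 read 8.24, 7.66, 8.95, 7.21 and 8.03 against 8.70, 8.39, 8.78 and 8.68, a difference of -0.62 ± 0.24. Mlxipl, the gene of ChREBP, read 9.84, 9.15, 9.68, 9.12 and 9.35 against 9.88, 9.68, 9.66 and 9.78, a difference of -0.32 ± 0.15. Both ranges overlapped the controls, through replicate 3 for Srebf1 and through replicates 1 and 3 for Mlxipl.

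Acaca, acetyl-CoA carboxylase 1, was lower by 0.42 ± 0.14, and Acly, ATP citrate lyase, by 0.36 ± 0.17. Mid1ip1, a partner of Thrsp that activates the carboxylase, was lower by 0.70 ± 0.22 on its brightest probe set, while its 2 dimmer probe sets differed by 0.03 and 0.18. Elovl6, the elongase of the same program, was the exception, with a difference of 0.12 ± 0.23.

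Glycolysis and sugar use had 4 members higher and 12 lower of 16, with a median of -0.12. Pklr, liver pyruvate kinase and a ChREBP target, read 9.85, 9.73, 10.68, 10.36 and 9.87 against 10.23, 10.38, 10.95 and 11.16. Its drug arrays overlapped the controls in replicates 3 and 4, and the difference was -0.58 ± 0.20. Khk, which phosphorylates fructose, was lower by 0.36 ± 0.17. Ldha, Gapdh and Pgam1 differed by -0.15, -0.12 and -0.14, with limma adjusted p-values of 0.876 to 0.883.

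Within glycogen metabolism the targeting subunits of protein phosphatase 1 went opposite ways. Ppp1r3c, which brings the phosphatase to glycogen, read 5.47, 5.13, 6.74, 4.81 and 5.44 against 6.47, 5.88, 7.18 and 6.95. Replicate 3 lay within the control range and the other 4 below it, with a difference of -1.10 ± 0.31. Ppp1r3g, a fasting-induced subunit, read 5.47, 5.57, 4.25, 6.97 and 5.92 against 4.41, 4.74, 4.63 and 4.54. Here replicate 3 was below all controls and the other 4 above them, and the difference was 1.06 ± 0.34.

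Ppp1r3b, the main hepatic subunit, was lower by 0.59 ± 0.26, and Phkg2, the catalytic subunit of liver phosphorylase kinase, by 0.23 ± 0.09 with fully separated groups. Gys2, liver glycogen synthase, and Pygl, liver phosphorylase, differed by 0.17 and -0.21 (limma adjusted p = 0.90 and 0.813). Of 16 members 5 were higher and 11 lower, with a median of -0.12.

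**Figure D2:**
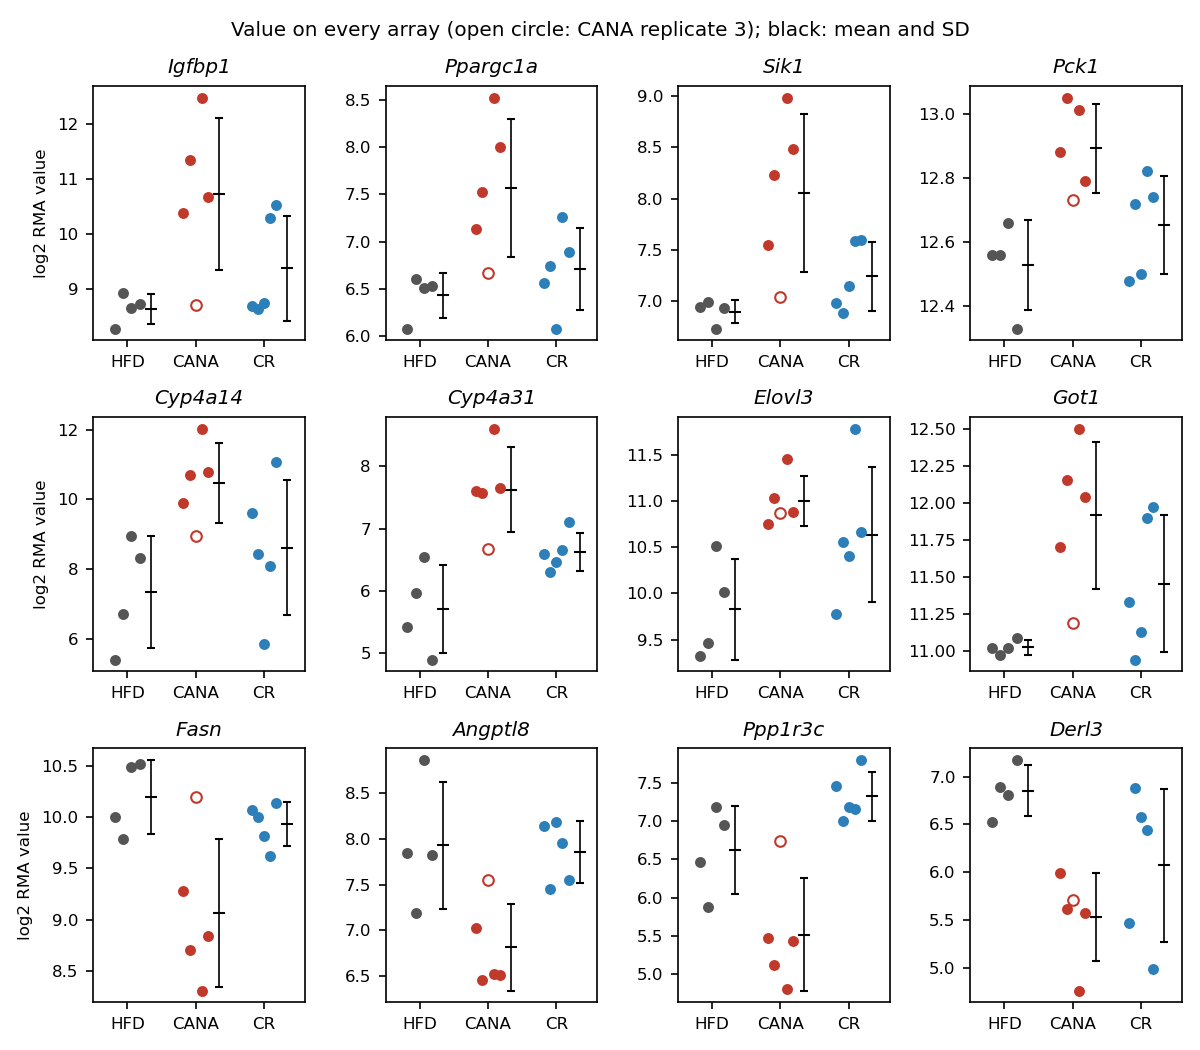
Log2 RMA value (vertical axis, scaled per gene) of 12 genes on every array of the HFD control (HFD), canagliflozin (CANA) and caloric restriction (CR) arms. Points are arrays, black marks are the mean and SD, and the open circle is canagliflozin replicate 3, which lies with the controls for Igfbp1 and Fasn.

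Genes of fatty acid oxidation lay on the higher side, most by small amounts. All 19 measured genes of mitochondrial β-oxidation had a higher mean under the drug, by 0.01 to 0.31, with a median of 0.09. Over all genes 11025 of 22180 were higher. Without control replicate 1, 14 of the 19 were higher and 5 lower. Hadhb and Acadm, enzymes of the β-oxidation spiral, were higher at an unadjusted p under 0.05, as 3.21% of all genes were. Their differences were 0.31 ± 0.12 and 0.26 ± 0.11. The probe set of Hadhb was dim, with a mean of 4.13 over the 14 arrays against 11.44 for Acadm. Acadm was 0.17 without control replicate 1. Genes of a pathway vary together within a liver, so the 19 are not independent of each other.

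Cpt1a, the carnitine transferase that admits fatty acids to mitochondria, read 11.11, 11.51, 10.91, 11.38 and 11.14 against 10.80, 10.89, 11.13 and 11.18. Its arrays overlapped, and the difference of 0.21 ± 0.14 (limma adjusted p = 0.832) was 0.14 without canagliflozin replicate 2. Of 5 measured genes of ketogenesis 4 were higher, by up to 0.18, and none had an unadjusted p under 0.05. Ppara itself, the fatty acid receptor that drives these genes, differed by -0.06 ± 0.13.

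Larger differences were seen in the PPARα targets of ω-oxidation, the microsomal route for surplus fatty acids. Cyp4a14 read 9.89, 10.69, 8.94, 12.03 and 10.78 under the drug and 5.40, 6.71, 8.94 and 8.31 in controls. Its controls alone spanned over 3 log2 units, and drug replicate 3 lay at the level of control replicate 3. The difference of 3.12 ± 0.85, or 8.72-fold, was the largest of all 22180 genes.

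Cyp4a31 read 7.61, 7.58, 6.68, 8.60 and 7.66 against 5.42, 5.96, 6.54 and 4.89, and every drug array lay above every control. It was higher by 1.92 ± 0.32, or 3.78-fold, with an adjusted p of 0.136 (limma). The Cyp4a genes are near-identical copies, so their probes may share signal and each value is uncertain as to the copy. Of the other 10 members of the list Cyp4a12a, Cyp4a12b and Cyp4f14 differed by -0.11, -0.19 and -0.14, and none had an unadjusted p under 0.05.

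Acyl-CoA thioesterases, which free fatty acids from coenzyme A, had 9 of 11 members higher and a median of 0.19. Acot1, the cytosolic PPARα target, read 7.10, 7.11, 6.88, 7.72 and 7.06 against 5.67, 6.00, 6.76 and 6.47, with no overlap and a difference of 0.95 ± 0.25. Acot2, its mitochondrial neighbour, read 7.52, 8.42, 7.56, 9.41 and 8.33 against 6.67, 6.69, 8.03 and 8.07, a difference of 0.88 ± 0.35. Acot1 and Acot2 are close in sequence and their probes may not separate them. Acot9, a mitochondrial thioesterase of another subfamily, read 4.93, 4.71, 4.70, 4.44 and 3.50 against 3.33, 3.35, 3.45 and 3.50. Only replicate 5 lay at the control level, and the difference was 1.05 ± 0.23, or 1.29 with an adjusted p of 0.0104 when replicate 5 was left out.

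The list of other PPARα targets had 12 of 18 members higher and a median of 0.19, with 4 members higher at an unadjusted p under 0.05 (3.21% of all genes). That count was 8 without canagliflozin replicate 3. Hsdl2, a peroxisomal dehydrogenase-like protein, was separated, at 8.44, 8.48, 8.14, 8.62 and 8.29 against 7.83, 8.13, 8.07 and 7.89. Retsat, retinol saturase, was higher by 0.42 ± 0.14. Slc22a5, the carnitine transporter OCTN2, read 7.44, 7.71, 6.46, 7.76 and 7.54 against 6.63, 6.47, 6.87 and 6.91, and its replicate 3 was below all controls.

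Fgf21, the hepatic fasting hormone, read 6.23, 6.99, 5.28, 7.36 and 6.90 against 5.77, 5.29, 6.02 and 5.52. Replicate 3 was just below all controls and the other 4 were above them, with a difference of 0.90 ± 0.32 (limma adjusted p = 0.656). Fabp1 and Angptl4, also PPARα targets, differed by -0.13 and 0.16 (limma adjusted p = 0.867 and 0.87). The list was thus not uniform.

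Peroxisomal oxidation had 12 of 19 members higher with a median of 0.05. Ehhadh, the bifunctional enzyme, was higher by 0.32 ± 0.12 and Acaa1a, a peroxisomal thiolase, by 0.31 ± 0.14. In lists with 2 or 3 members at an unadjusted p under 0.05, leaving out 1 array moved that count by over 1.5 times in many cases, for peroxisomal oxidation between 0 and 4. Such counts carry no statement here.

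Lipid storage and export genes were mixed. Angptl8, the insulin-induced inhibitor of lipoprotein lipase, read 7.03, 6.45, 7.55, 6.52 and 6.51 against 7.84, 7.19, 8.87 and 7.82. Replicate 3 was the only drug array above the lowest control, and the difference was -1.12 ± 0.28, or 2.17-fold. The remaining 18 genes of lipoprotein assembly and clearance, Apob and Mttp among them, differed by between -0.14 and 0.20.

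Pnpla2, the triglyceride lipase ATGL and a FOXO1 target, read 9.48, 9.56, 8.42, 9.81 and 9.52 against 9.09, 8.63, 8.72 and 9.12. Replicate 3 was the lowest of the 9 arrays and the other 4 were the highest. The difference of 0.47 ± 0.21 was 0.70 without canagliflozin replicate 3. Fabp4, a fatty acid carrier of adipocytes and macrophages, was higher by 0.56 ± 0.20, at 5.75, 6.65, 5.64, 6.46 and 5.96 against 5.60, 5.99, 5.06 and 5.46. Markers of macrophages averaged 6.13 to 6.49 under the drug and 5.87 to 6.52 in controls, and their part in the Fabp4 value was not tested.

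For triglyceride assembly the acyltransferases Gpat3 and Gpat4 were each higher by 0.36, with standard errors of 0.16 and 0.15. Lpin2, a phosphatidate phosphatase, has 2 probe sets that gave different sizes. The brighter one was higher by 0.44 ± 0.13, and the dimmer one read 7.35, 7.95, 6.90, 8.54 and 8.57 against 5.85, 5.56, 6.16 and 6.88. That is full separation by 1.75 ± 0.33, in a fit of all probe sets one by one (limma adjusted p = 0.388). Dgat2, which completes triglyceride synthesis, differed by -0.16.

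Elovl3, which elongates saturated and monounsaturated fatty acids, read 10.75, 11.03, 10.87, 11.45 and 10.88 against 9.32, 9.46, 10.51 and 10.02. All drug arrays were above all controls, by 1.17 ± 0.30 or 2.25-fold. Elovl3 is also a male-biased liver gene under clock control, and the other sex-biased genes of that list were not separated. Hacd2, a dehydratase of the elongation cycle, was lower by 0.30 ± 0.11 with separated groups.

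Cholesterol synthesis had 13 of 16 members lower and a median of -0.28, but no member at an unadjusted p under 0.05. That count was 5 without control replicate 1, 4 without canagliflozin replicate 5 and 2 without canagliflozin replicate 3, all lower. The spread within each group was wide: Sqle, squalene epoxidase, read 6.18, 5.88, 6.55, 6.53 and 7.64 against 6.29, 6.99, 7.92 and 7.83. Control replicate 1 read at the level of the drug arrays and drug replicate 5 at the level of the controls. The median of the list was -0.55 to -0.11 as arrays were left out. Among sterol regulators Insig2, which retains SREBP in the endoplasmic reticulum, was higher by 0.37 ± 0.15 with separated groups, and Stard4, a cholesterol carrier, lower by 0.47 ± 0.16.

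Bile acid genes had 9 members higher and 13 lower of 22. Cyp7a1, the hydroxylase that opens bile acid synthesis from cholesterol, read 10.27, 11.77, 11.01, 11.19 and 11.65 against 10.01, 10.94, 11.16 and 10.94. Its difference of 0.42 ± 0.30 (limma adjusted p = 0.862) ranged from 0.17 to 0.64 as arrays were left out, with canagliflozin replicates 1 and 2 and control replicate 1 moving it most. Cyp8b1, which makes cholic acid, was higher by 0.65 ± 0.26, or 0.39 without control replicate 1. Cyp39a1, an oxysterol hydroxylase, was higher by 0.65 ± 0.24, and Abcb4, the canalicular phospholipid exporter, by 0.27 ± 0.10.

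Amino acid breakdown had 15 of 22 members higher, 6 of them at an unadjusted p under 0.05 and none lower at that level, where 3.21% of all genes were higher and 3.3% lower. Tat, tyrosine aminotransferase and a classical glucagon and glucocorticoid target, read 13.21, 13.32, 13.19, 13.53 and 13.38 against 12.66, 12.89, 13.23 and 12.93. Only control replicate 3 reached the drug range, and the difference was 0.40 ± 0.13. Kynu and Hgd, enzymes of tryptophan and tyrosine breakdown, were separated from the controls, with differences of 0.34 ± 0.11 and 0.25 ± 0.08. The list's median was 0.12.

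The urea cycle, which disposes of the freed nitrogen, had 3 of 8 members with all drug arrays above all controls, as 0.987% of all genes did. Slc25a15, the mitochondrial ornithine carrier, read 10.38, 10.63, 10.34, 10.46 and 10.40 against 9.95, 9.95, 10.27 and 10.04, a difference of 0.39 ± 0.10. Asl, argininosuccinate lyase, was higher by 0.29 ± 0.12 and Arg1, arginase 1, by 0.14 (limma adjusted p = 0.832). Ass1, argininosuccinate synthase, was higher by 0.48 ± 0.15, with control replicate 3 inside the drug range. Cps1 and Otc, the mitochondrial steps, differed by 0.04 and -0.10.

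Slc7a2, a cationic amino acid transporter, read 10.88, 11.47, 10.77, 11.24 and 11.16 against 10.35, 10.51, 10.60 and 10.65. Its groups were separated by 0.57 ± 0.13. In methionine and sulfur metabolism Cth, cystathionine γ-lyase, was separated too, at 10.95, 11.49, 10.91, 11.39 and 10.98 against 10.59, 10.83, 10.79 and 10.83. Nnmt, nicotinamide N-methyltransferase, was higher by 0.66 ± 0.18, and Pemt, which makes phosphatidylcholine, lower by 0.20 ± 0.08.

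Of 19 tricarboxylic acid cycle genes 16 were higher, with a median of 0.10. That count was 12 to 18 as 1 array was left out, and 12 without canagliflozin replicate 2. Fh1, fumarate hydratase, read 10.57, 10.90, 10.19, 10.96 and 10.77 against 10.22, 10.05, 9.95 and 10.10. Replicate 3 lay just below the highest control and the other 4 above it, and the difference was 0.60 ± 0.13 (limma adjusted p = 0.432). Mdh2, Idh2 and Idh3a were higher by 0.24, 0.37 and 0.29, Idh2 by 0.21 without control replicate 1. At an unadjusted p under 0.05, where 3.21% of all genes were higher, 4 members were higher. Those 4 became 2 without canagliflozin replicate 2 or 3 or control replicate 1. Of 27 respiratory chain genes 20 were higher with a median of 0.04, and Ndufa1, the 1 member at that level, was higher by 0.29 ± 0.14, or 0.16 without control replicate 3.

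Chaperones and degradation factors of the endoplasmic reticulum, which fold secretory proteins and are induced through ATF6 and XBP1, were lower under the drug. Of 25 measured members 22 were lower and 3 higher, with a median of -0.23. At an unadjusted p under 0.05 limma gave 11 lower and 1 higher, against 3.3% and 3.21% of all genes, and in 4 members all drug arrays lay below all controls, where 0.965% of all genes did. Without canagliflozin replicate 4 or 5 the 11 became 5, without control replicate 1 they became 4, and without control replicate 2 they became 6. The median stayed between -0.24 and -0.14.

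Derl3, a derlin of the channel that returns misfolded proteins to the cytosol, read 6.00, 5.61, 5.71, 4.76 and 5.58 against 6.53, 6.90, 6.81 and 7.18. Every drug array lay below every control, replicate 3 included, by 1.32 ± 0.32 or 2.50-fold (limma adjusted p = 0.559). Of all 22180 genes Derl3 had the most negative difference. Xbp1, the transcription factor of the response, read between 8.44 and 9.14 on the 5 drug arrays against 9.55, 9.25, 9.30 and 9.27, lower by 0.44 ± 0.14 and separated. The arrays report total Xbp1 and not its spliced form.

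Sdf2l1 and Pdia3, a chaperone cofactor and a disulfide isomerase, were the other separated members, lower by 0.64 ± 0.25 and 0.40 ± 0.14. Creld2, a disulfide isomerase-like protein induced with them, read 8.26, 7.78, 8.05, 7.78 and 8.13 against 9.15, 8.97, 8.71 and 8.10. Only control replicate 4 lay in the drug range, and the difference was -0.73 ± 0.24. Hyou1, a large chaperone, was lower by 0.64 ± 0.28. Hspa5, the master chaperone BiP, read 8.23, 8.19, 8.57, 7.84 and 8.29 against 8.54, 8.66, 8.56 and 8.17, and its difference was -0.26 ± 0.19 (limma adjusted p = 0.866).

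Dnajb9, a BiP cofactor, went the other way, at 8.36, 7.92, 7.32, 8.04 and 8.76 against 7.46, 7.35, 7.47 and 7.87. It was higher by 0.54 ± 0.22, and replicate 3 was the lowest of the 9 arrays. The ATF4 list, of the parallel branch of the stress response, had 10 of 18 members higher with a median of 0.02. Atf4 and Ddit3, its central factors, differed by 0.18 and -0.14 (limma adjusted p = 0.796 and 0.861).

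Promoters of 3 of these genes are shown because they share a long sequence that ATF6 and NF-Y bind, the ER stress element. It was searched on either strand as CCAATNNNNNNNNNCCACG and is in capitals. The stretches are from RefSeq on GRCm38.p6, all on the plus strand and ending before the start: Derl3 at chr10:75893192-75893310, Creld2 at chr15:88819470-88819588 and Hspa5 at chr2:34771975-34772089.
Derl3: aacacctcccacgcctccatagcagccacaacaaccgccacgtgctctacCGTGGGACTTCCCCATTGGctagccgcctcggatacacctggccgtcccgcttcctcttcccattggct
Creld2: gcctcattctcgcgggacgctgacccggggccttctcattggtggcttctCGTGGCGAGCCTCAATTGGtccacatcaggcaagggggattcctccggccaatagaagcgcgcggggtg
Hspa5: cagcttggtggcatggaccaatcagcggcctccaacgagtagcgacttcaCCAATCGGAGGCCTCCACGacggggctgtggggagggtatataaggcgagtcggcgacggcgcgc
Derl3 and Creld2 hold the element in reverse orientation, 156 to 138 and 126 to 108 bases before the start, and Hspa5 holds it forward at 65 to 47. The element was in 39 of 32851 windows (0.119%), and in 9 of the 21 list members with a window, which are Hspa5, Hsp90b1, Pdia6, Calr, Canx, Dnajc3, Creld2, Syvn1 and Derl3. All 9 were lower under the drug, by 0.13 to 1.32, with a median of -0.26. Of the 12 with a window and no match 10 were lower, with a median of -0.19, and Xbp1, Pdia3 and Sdf2l1 were among these. Members with and without the letters were thus on the lower side.

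Lepr, the leptin receptor, was the largest difference in the hormone list. It read 6.51, 7.13, 3.96, 7.18 and 5.97 under the drug against 4.35, 3.94, 4.11 and 4.60. Replicate 3 lay with the controls while the other 4 were over 1 unit above them, and the difference was 1.90 ± 0.47 or 3.74-fold (limma adjusted p = 0.559). Without canagliflozin replicate 3 it was 2.45 with an adjusted p of 0.00214. Fst, the activin antagonist follistatin, was higher by 0.31 ± 0.11, and Nr3c1, the glucocorticoid receptor, lower by 0.22 ± 0.09. Igf1 and Ghr, of the growth hormone axis, differed by -0.01 and -0.20. The 22 measured genes of the hormone list split into 7 higher and 15 lower, with a median of -0.08. At an unadjusted p under 0.05 limma gave 2 higher and 3 lower, against 3.21% and 3.3% of all genes. The lower count was 0 to 6 as 1 array was left out.

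Ddit4, an inhibitor of mTORC1 signalling, read 6.56, 6.27, 7.09, 7.66 and 7.43 against 6.07, 5.84, 6.72 and 5.75. Control replicate 3 reached the drug range, and the difference was 0.91 ± 0.29. Map1lc3b, of the autophagosome membrane, was higher by 0.43 ± 0.15, and Trp53inp1, a stress and autophagy protein, was separated from the controls by 0.70 ± 0.21. The list of 26 energy-sensing and autophagy genes had 15 higher and a median of 0.03. Cebpb and Cebpd, transcription factors induced in fasting, were higher by 0.29 ± 0.13 and 0.43 ± 0.18.

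Cell cycle genes had 9 higher and 15 lower of 24. Ccnd1, cyclin D1, read 6.53, 6.30, 6.31, 6.15 and 6.18 against 7.42, 7.27, 7.79 and 6.25. Control replicate 4 lay among the drug arrays, and the other 3 controls lay above them all, with a difference of -0.89 ± 0.24. Mcm5, a helicase subunit, and E2f1, a G1/S transcription factor outside this list, were separated, lower by 0.32 ± 0.09 and 0.50 ± 0.10. Both were dim, with means over all arrays of 4.81 and 4.86. Top2a, a member of the list, went the other way, higher by 0.21 ± 0.09 at a still dimmer mean of 2.79. At an unadjusted p under 0.05 limma gave 1 member higher and 2 lower, against 3.21% and 3.3% of all genes. The higher count was 0 to 2 and the lower count 2 to 3 as 1 array was left out. Mki67 and Pcna, markers of dividing cells, differed by 0.05 and 0.02.

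Of the clock genes Per3, Dbp and Tef were lower by 0.31 ± 0.13, 0.41 ± 0.19 and 0.26 ± 0.12, and Arntl and Nr1d1 differed by 0.38 and 0.00. The 16 measured clock genes split into 6 higher and 10 lower, with a median of -0.04. At an unadjusted p under 0.05 limma gave 3 lower, against 3.3% of all genes. That count was 0 without canagliflozin replicate 4, control replicate 3 or control replicate 4. The labels used here do not give the time of day at collection. Orm3, an acute phase protein, was lower by 0.92 ± 0.39, or 0.61 without control replicate 4. Only canagliflozin replicate 5 lay below all controls for Orm3. Stat2, of interferon signalling, was lower by 0.36 ± 0.17, and Cyp2c55, a xenobiotic enzyme, by 0.61 ± 0.21, or 0.40 without canagliflozin replicate 4. A dimmer probe set of Cyp2c55 had the opposite sign, 0.30. Orm3, Stat2 and Cyp2c55 were each the only member of their list at an unadjusted p under 0.05, where 3.3% of all genes were lower. Their lists measured 21 acute phase, 18 interferon and 29 xenobiotic genes, with medians of 0.04, -0.03 and -0.05.

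Slc5a2, the gene of the drug's target SGLT2, was dim in the liver of both groups, at 4.39, 4.36, 4.33, 4.04 and 4.01 against 4.22, 4.20, 4.31 and 4.47. The difference was -0.08 ± 0.12, with a 95% interval of -0.33 to 0.17. Slc5a1, of the related intestinal transporter SGLT1, differed by -0.16 ± 0.18. Single arrays decided the size of both small values, which ran from -0.12 to -0.02 and from -0.30 to -0.03 as 1 array was left out. None of the 15 sugar transporters had an unadjusted p under 0.05, and Slc2a2, the hepatic transporter GLUT2, differed by -0.08.

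Several genes outside these lists were named for the smallest p-values or as the most extreme separated genes. Carmil1, a regulator of actin capping, read 6.99, 7.04, 7.08, 6.85 and 6.90 against 6.54, 6.29, 6.32 and 6.21. It was higher by 0.63 ± 0.10 (limma adjusted p = 0.133), and replicate 3 was the highest drug array. Among the 9300 genes with a mean of at least 5 its adjusted p was 0.0449.

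Rtkn, which encodes rhotekin, read 4.80, 5.02, 4.75, 4.88 and 4.93 against 5.49, 5.33, 5.28 and 5.49. It was lower by 0.52 ± 0.09 (limma adjusted p = 0.181). Trp53cor1, the p53-induced long noncoding RNA lincRNA-p21, read 4.73, 5.08, 4.74, 4.67 and 4.94 against 5.36, 5.45, 5.21 and 5.49, lower by 0.54 ± 0.10. Both were separated from the controls, at dim levels. Fgfr3, a fibroblast growth factor receptor, was lower by 0.72 ± 0.16 and also separated, at 5.67, 5.17, 5.52, 5.37 and 5.21 against 5.95, 6.06, 6.18 and 6.23.

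Ctcflos, a long noncoding RNA, was higher by 1.10 ± 0.23, with only replicate 3 inside the control range. Pawr, a pro-apoptotic regulator, was separated and higher by 0.50 ± 0.11, and Pde7b, a cAMP phosphodiesterase, by 0.66 ± 0.20. Nucb2, the precursor of nesfatin-1, Cyp2u1, a fatty acid hydroxylase, and Rbm12b1 were lower by 0.53 ± 0.13, 0.50 ± 0.20 and 0.67 ± 0.17, all separated. Ifna1, Gask1a, Abhd14a and Frmpd3 were separated as well, at lower means by 0.37 to 0.49 units. Fgfr3, Pde7b, Nucb2, Cyp2u1, Rbm12b1, Ifna1 and Gask1a were named by rule for their separation, so it is no further result for them. The same holds for Slc7a2 and Trp53inp1 above.

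**Figure D3:**
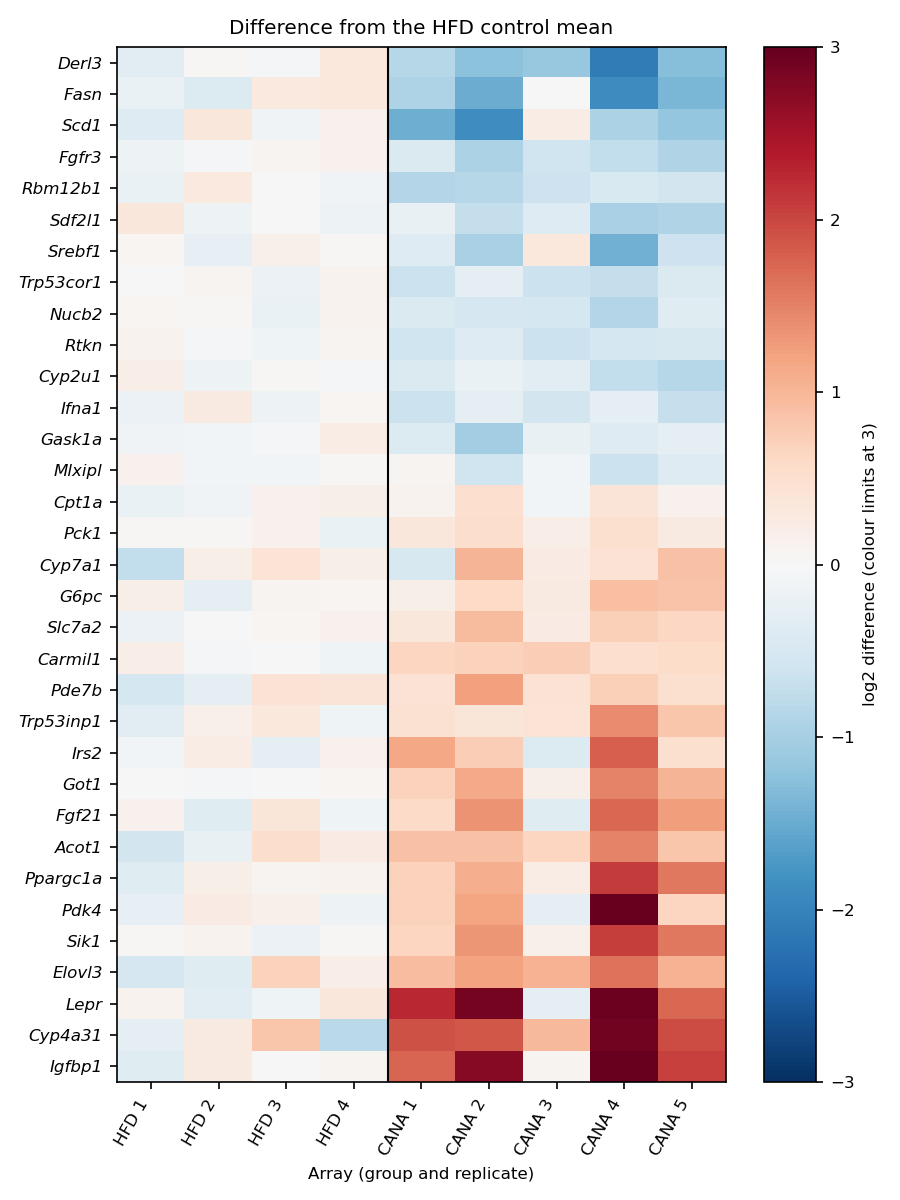
Difference of each of the 9 arrays (columns) from the mean of the 4 HFD controls for 33 named genes (rows), as log2 units in colour, red for higher and blue for lower, with colours ending at 3 so that larger values look alike. Canagliflozin replicate 3 is pale for Igfbp1, Lepr, Pdk4, Fasn and Scd1 and coloured like the other drug arrays for Derl3, Elovl3, Carmil1 and Rtkn.

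In the 28 genes with a difference of at least 2-fold, replicate 3 was the drug array nearest to the controls in 16 and the farthest in 0, and its median difference in the direction of the mean was 0.32. Replicate 4 was the farthest in 16 and the nearest in 0, with a median of 1.88. Replicates 1, 2 and 5 had medians of 0.92, 1.39 and 1.38. These genes were chosen for their means over the same arrays, so the values are a description. The labels give all 5 the same dose, and drug exposure and body weight of single mice were not analysed here.

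Replicate 3 did not stand apart in scale or in overall correlation, with a median of 4.10 and a mean correlation of 0.988 with its own arm. It lay within the control range for Igfbp1, Lepr, Fasn and Scd1, and beyond that range, away from the other drug arrays, for Thrsp, Srebf1, Irs2, Fgf21, Pdk4, Pnpla2, Slc22a5 and Ppp1r3g. It lay on the same side of all controls as the other drug arrays for Derl3, Xbp1, Elovl3, Hsdl2, Slc25a15, Cth, Carmil1, Rtkn and Fgfr3. Averaged over the list, lipogenesis read 8.84, 8.57, 9.48, 8.71 and 8.92 under the drug against 9.20, 9.21, 9.54 and 9.59. Endoplasmic reticulum folding read 8.66, 8.50, 8.65, 8.27 and 8.55 against 8.90, 8.79, 8.79 and 8.69, with no overlap.

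**Figure D4:**
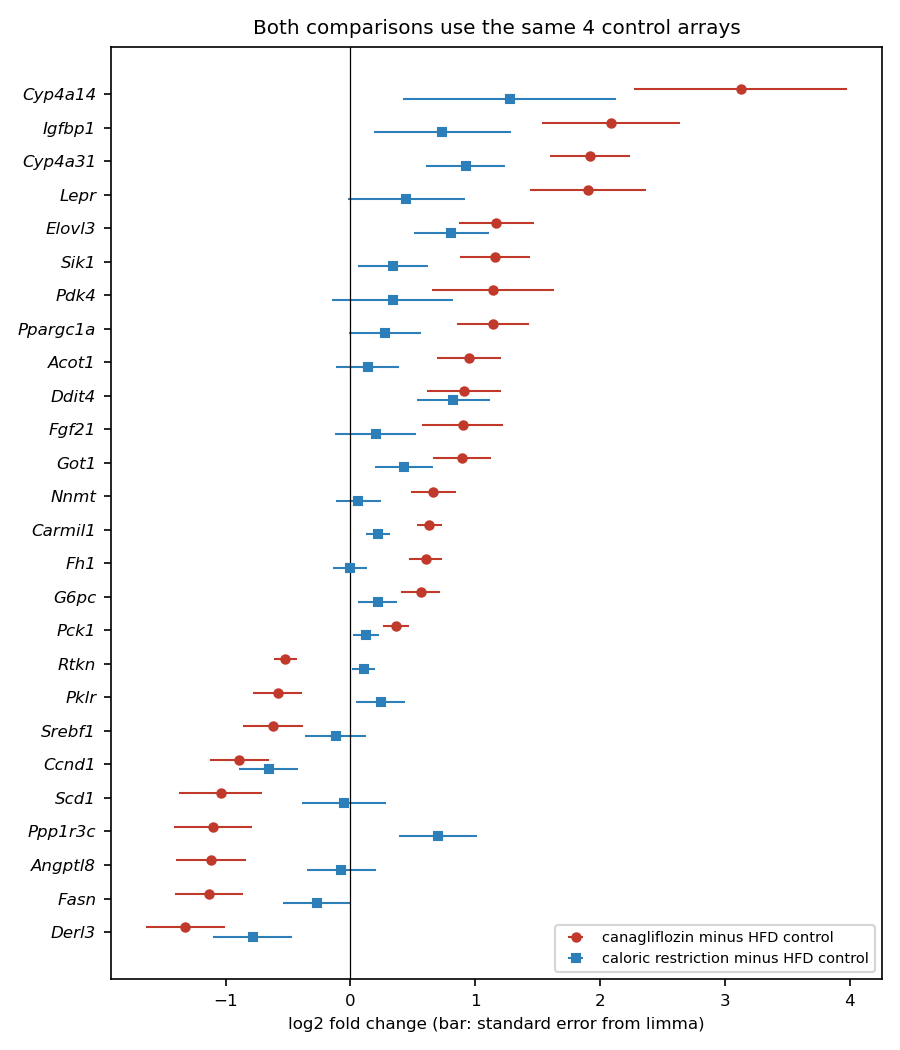
Log2 fold change against HFD control (horizontal axis) of 26 named genes for canagliflozin (circles) and caloric restriction (squares), with standard errors as bars. Both comparisons use the same 4 control arrays, so the pairs are not independent. Fasn is at -1.13 and -0.27, Ppp1r3c at -1.10 and 0.70, and Derl3 at -1.32 and -0.78.

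In the direct test of canagliflozin against caloric restriction 1 gene was called at an adjusted p under 0.05 (0.00451% of 22180) and 1341 had an unadjusted p under 0.05 (6.05%). The called gene was Rtkn, at 5.50, 5.49, 5.65, 5.55 and 5.33 under restriction and lower by 0.63 ± 0.09 under the drug (limma adjusted p = 0.0264). No array of the drug arm reached the lowest of the restriction arm. No gene was called without any one of canagliflozin replicates 1, 4 and 5 or of caloric restriction replicates 1 to 4. Without canagliflozin replicate 2 there were 2 called genes, and without canagliflozin replicate 3 there were 16.

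Ppp1r3c read 7.46, 6.997, 7.19, 7.17 and 7.80 under restriction, above all drug arrays, and the drug was lower by 1.80 ± 0.29 (limma adjusted p = 0.105). The restriction arm differed from the controls by 0.70 in this gene and the drug arm by -1.10, both set against the same controls. Fasn read 10.07, 9.999, 9.81, 9.62 and 10.14 under restriction, and the drug was lower by 0.86 ± 0.25 (limma adjusted p = 0.68). Pklr was lower under the drug than under restriction by 0.82 ± 0.19, Angptl8 by 1.04 ± 0.26 and Scd1 by 0.99 ± 0.32. Over the lipogenesis list the median against control was -0.39 for the drug and -0.05 for restriction.

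Igfbp1 read 8.69, 8.63, 8.74, 10.29 and 10.54 under restriction, with replicates 4 and 5 above all HFD controls, and the drug was higher by 1.35 ± 0.52 (limma adjusted p = 0.80). Ppargc1a and Sik1 were higher under the drug than under restriction by 0.86 ± 0.27 and 0.81 ± 0.26, Fh1 by 0.61 ± 0.13 and Ctcflos by 1.13 ± 0.22. The limma adjusted p-values of these 4 lay between 0.49 and 0.68.

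In other genes the direct difference was small against its error. Ddit4 differed between drug and restriction by 0.08 ± 0.28, Elovl3 by 0.36 ± 0.28, Ccnd1 by -0.23 ± 0.22, Creld2 by -0.19 ± 0.23 and E2f1 by -0.10 ± 0.10. Derl3 read 5.46, 6.88, 6.58, 6.45 and 4.99 under restriction, which spanned the drug and the control ranges, and the drug was lower by 0.54 ± 0.30. The median of endoplasmic reticulum folding against control was -0.23 for the drug and -0.16 for restriction. Differences this size against their errors do not show that the arms act alike.

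Markers of cell types were read beside these results. Periportal hepatocyte markers averaged 10.25 to 10.63 under the drug and 10.08 to 10.28 in controls. The 8 measured split into 4 higher and 4 lower, with differences of -0.19 to 0.80 and a median of 0.07. At an unadjusted p under 0.05, where 3.21% of all genes were higher, 3 of the 8 were higher, Pck1, Ass1 and Etnppl. The first 2 belong to gluconeogenesis and the urea cycle as well, and Hal and Cdh1 of the same list differed by -0.01 and -0.04. Of 9 pericentral markers 1, Oat, was higher at that level, and Glul and Cyp2e1 differed by -0.04 and 0.06. Stellate cell markers averaged 5.88 to 6.11 against 5.78 to 6.03. The 14 measured split into 9 higher and 5 lower, with differences of -0.185 to 0.57 and a median of 0.07. At an unadjusted p under 0.05 limma gave 2 higher and 0 lower, against 3.21% and 3.3% of all genes. Col1a1 differed by 0.05. Means of sinusoidal endothelium, cholangiocytes, lymphocytes and neutrophils overlapped between the groups, at 7.11 to 7.47 against 7.14 to 7.46 for the first of these. The part of cell composition in the differences above was not tested.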

How the data were processed

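Liver RNA of 14 samples (250 ng each) was made into labelled cDNA by the WT Plus protocol. The deposited log2 intensities, 1 per probe set, are RMA output, and the submitters' processing notes name Affymetrix Expression Console. RMA subtracts background, makes the arrays' distributions alike and summarises probes, so a shift of most transcripts in one arm would be removed. No version or genome build is stated in the notes. Arrays have no read depth, and their number limits the precision.

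Groups came from the sample titles and treatment labels. Of 41345 probe sets 23521 had exactly 1 gene symbol, 1814 had several and 16010 are unnamed here. The brightest probe set (by mean over the 14 arrays) stood for each of 22180 genes (1082 had more than 1), and 21994 of these matched RefSeq. Group means were fitted with limma 3.58.1 in R 4.3.3 to all 14 arrays, so that the groups share 1 estimate of the spread, with Benjamini-Hochberg adjustment over all genes, a threshold of 0.05 and no filter on dim genes. Errors of differences are standard errors of that fit. The fit was tested on simulated data. Groups called separated are those with all 5 drug values above, or all below, the 4 control values.

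The lists (35 of pathways, 13 of cell markers) and rules were chosen with earlier results of these data known, so their counts are descriptions. Named were, in each direction, the 10 most extreme separated genes with a mean of at least 5 and the 5 with the smallest p, up to 3 members of each pathway list with an unadjusted p under 0.05, and 16 metabolic genes whatever their values (Cpt1a, Cyp7a1, Fasn, Fgf21, G6pc, Igfbp1, Irs2, Lepr, Mlxipl, Pck1, Pdk4, Ppargc1a, Scd1, Slc5a1, Slc5a2, Srebf1). Other genes of that rule are not reported here. Gene models, small RNAs and receptor families were left out of the first 2. Other genes are given only as examples of their lists and were chosen after their values were seen, as were the promoter motifs.

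Alternatives were a fit of the 9 arrays alone, filters on dim genes, median centring, cyclic loess, a trended robust variance, weighted arrays, a block for replicate number, a covariate for deposited order, other handling of probe sets, and leaving out each array.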

Additional observations from a re-analysis of the deposited data

Results flagged for a closer look

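Among the 100 genes named by rule, 10 had 1 array far from the rest of its group, in the sense that its gap to the nearest other array was a large part of the group's range. Over the 200 groups tested (drug and control for each gene) chance flags about 1 in 20, so 10 flags are near that rate.

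In the canagliflozin arm, Acot1 read 7.72 on replicate 4, where the next array read 7.11, and Gask1a read 4.21 on replicate 2, below 4.84. Replicate 3 was flagged for Slc22a5, the carnitine transporter, at 6.46 against 7.44 for the next lowest, and for Pnpla2, the triglyceride lipase, at 8.42 against 9.48.

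In the control arm, replicate 3 was high for Phkg2 (7.74, next 7.60) and for Acaa1a (7.96, next 7.51). Replicate 4 was high for Cyp39a1 (8.01, next 7.38) and for Cyp2c55 (6.27, next 5.97). Replicate 1 was low for Idh2 (8.06, next 8.61) and for Per3 (6.82, next 7.08).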

How the results depend on the processing

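None of the 100 genes named by rule reversed its sign under any alternative run. For canagliflozin against HFD control the count of genes at a limma adjusted p under 0.05, 0 as reported beside 1444 at an unadjusted p under 0.05, was 1 with deposited order as a covariate (Olfr331, named after its value was seen), 1 with a mean of at least 5 and 1 with at least 6 (both Carmil1), and 0 to 12 as 1 array was left out (12 without canagliflozin replicate 3). Genes at an unadjusted p under 0.05 numbered 2375 over all probe sets, 670 with a mean of at least 5 and 488 with at least 6, where fewer or more features were tested. Genes with separated groups numbered 756, 177 and 114 under the same settings and 668 to 959 with 1 array left out. For canagliflozin against caloric restriction the 1 called gene became 0 over all probe sets, 0 with a mean of at least 6, and 0 to 16 with 1 array left out.

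With the replicate number as a block, 0 genes were called against HFD control (1399 at an unadjusted p under 0.05) and 2 against caloric restriction. Drug and control arrays with the same number had residual correlations of 0.198, 0.056, 0.041 and 0.104. Pairs with different numbers were not computed, so whether arrays of the same number share more than that number was not tested. Median centring shifted the median of all genes by 0.02, and 936 genes were then higher and 527 lower at an unadjusted p under 0.05. Of 1865 values of these genes under the alternatives, 1853 kept direction and side of the threshold and 12 passed it only there. Of 665 list medians 7 moved by more than the spread between arrays and 23, in 10 of the 35 lists, changed sign. The reported medians of those 10 lists were within 0.0737 of 0, and no direction is read from them.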

Other observations

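Several genes outside the lists and the naming rule also differed by at least 2-fold. They were chosen after their values were seen, and none passed the test. Slco1a4, an organic anion transporter, read 7.42, 8.62, 8.04, 8.28 and 8.21 on the log2 scale under canagliflozin and 6.31, 7.58, 6.80 and 7.69 in controls, higher by 1.02 ± 0.37 (SE). Gadd45g, a growth arrest and DNA damage gene, read 7.58, 8.60, 5.80, 8.96 and 8.96 against 6.36, 8.14, 6.24 and 6.83, higher by 1.09 ± 0.55. Drug replicate 3 was the lowest of the 9 arrays for Gadd45g.

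On the lower side, Foxq1, a forkhead transcription factor, read 6.36, 7.30, 6.43, 7.23 and 5.92 against 7.32, 8.75, 6.54 and 8.18, lower by 1.05 ± 0.39. Gbp11, a guanylate-binding protein, was lower by 1.05 ± 0.35, and C4a, a complement component, by 1.03 ± 0.35. The groups overlapped for all 5 of these genes.

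The probe set of Mir122, the gene of a microRNA abundant in hepatocytes, read 4.27, 3.77, 5.72, 3.97 and 4.43 against 6.02, 5.02, 5.20 and 5.66, lower by 1.04 ± 0.41. Drug replicate 3 lay in the control range and the other 4 drug arrays lay below all controls.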
